A study of Homo sapiens with 12 samples.

Results

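The genes of the mitochondrial genome were taken as all rows of the count tables whose gene name starts with MT-. This gave 37 of 58735 rows, made up of 13 mRNAs, 2 rRNAs and 22 tRNAs, and the same 37 were found in the table of each cell line. RNA was sequenced from KELLY and SK-N-AS, a pair of human neuroblastoma cell lines, after 24 h with Erastin or with the vehicle DMSO. KELLY received 1 µM and SK-N-AS 2 µM Erastin, so dose and cell line cannot be told apart in any comparison of the responses. Each of the 4 groups had 3 samples, all grown in the same serum-containing medium. The samples of a group came from wells of 1 line seeded in triplicate, so p-values measure the spread between these wells and not between tumors. The labels give the cell type of KELLY as neuronal and that of SK-N-AS as neuroblast.

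The mitochondrial genome is a small circle that encodes core subunits of respiratory complexes I, III, IV and V, together with the rRNAs and tRNAs needed to translate them inside the organelle. Both strands are transcribed as long precursors by the polymerase POLRMT with TFAM and TFB2M. The tRNAs lie between the mRNAs and are cut out of the precursor, after which each mRNA is kept or degraded at its own rate, with LRPPRC and SLIRP among the factors that stabilize them. Erastin inhibits system Xc, the antiporter that imports cystine in exchange for glutamate, and leads to ferroptosis, a form of cell death driven by iron-dependent lipid peroxidation.

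The genes are packed so closely that some share bases. In GRCh38 the chromosome has 16569 bases. The forward strand of the reference carries 12 of the mRNAs, both rRNAs and 14 tRNAs, and the reverse strand carries MT-ND6 and 8 tRNAs. MT-ATP8 shares 46 of its 207 bases with MT-ATP6, and MT-ND4L shares 7 bases with MT-ND4, while MT-ATP6 and MT-CO3 meet in 1 shared base. MT-CO3 and MT-ND3 are separated by a single tRNA gene, MT-TG. A read pair that touches 2 genes is not assigned to either in the default mode of the counting program, and the mode used is not given in the sources used here, so counts of MT-ATP8 and of the tRNAs, which are 59 to 75 bases long, do not stand for their abundance. The sequences shown are those of the boundaries between the consecutive mRNAs MT-ATP8 to MT-ND3, of the MT-ND4L boundary, and of MT-TP, the tRNA with the most counts. Capitals mark the bases shared by the neighbouring genes, or the tRNA.
MT-ATP8/MT-ATP6 overlap, chrM:8507-8592, forward strand: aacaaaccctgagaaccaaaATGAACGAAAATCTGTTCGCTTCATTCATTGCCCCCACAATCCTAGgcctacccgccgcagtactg
MT-ATP6/MT-CO3 junction, chrM:9187-9227, forward strand: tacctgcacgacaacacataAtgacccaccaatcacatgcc
MT-CO3/MT-ND3 junction with MT-TG, chrM:9971-10078, forward strand: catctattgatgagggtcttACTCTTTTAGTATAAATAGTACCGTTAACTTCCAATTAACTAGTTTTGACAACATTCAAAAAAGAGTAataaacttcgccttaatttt
MT-ND4L/MT-ND4 overlap, chrM:10740-10786, forward strand: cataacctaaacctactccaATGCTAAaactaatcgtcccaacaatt
MT-TP, tRNA for proline, chrM:15956-16023, reverse strand: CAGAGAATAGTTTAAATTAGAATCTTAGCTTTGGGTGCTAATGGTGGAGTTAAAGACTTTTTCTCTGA

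Total counts per sample ranged from 24169796 to 29835670. MYCN was at 5121 to 5721 CPM (each count divided by all counts of the sample and scaled to 1000000) in KELLY DMSO and at 0.272 to 0.406 CPM in SK-N-AS DMSO. All 7 adrenergic neuroblastoma markers were higher and all 7 mesenchymal markers lower in KELLY DMSO than in SK-N-AS DMSO (edgeR quasi-likelihood test, adjusted p under 0.05). DBH and TH, enzymes of catecholamine synthesis, and ISL1, PHOX2A and GATA3 had the smallest p of the first list, and FOSL1, VIM, YAP1, PRRX1 and CD44 those of the second. Among blood and immune cell markers, PTPRC (CD45) had 447 to 609 CPM in the SK-N-AS samples and 0 counts in every KELLY sample, while CD3E was at 0 in all 12 samples, CD14 had at most 19 counts, HBA1 at most 8 and HBB at most 208. Within a group, libraries also differed in their dependence on the GC content of genes. Spearman's rho between GC content and the log2 ratio to the mean of the line, over 12152 KELLY and 11979 SK-N-AS genes, was -0.83, 0.70 and -0.48 in KELLY DMSO and 0.86, -0.66 and 0.25 in KELLY Erastin. In SK-N-AS it was 0.77, 0.24 and -0.75 with DMSO and -0.28, 0.43 and -0.44 with Erastin. The trends took both signs in every group.

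The first question was how much of the RNA counted came from mitochondrial genes. In KELLY DMSO the 37 genes took 6.79%, 6.51% and 7.23% of all counts in the 3 samples, and in KELLY Erastin 5.51%, 8.05% and 6.22%. The Erastin samples lay on both sides of the DMSO samples. The means were 6.84% ± 0.364 with DMSO and 6.59% ± 1.31 with Erastin (SD, n = 3 each; two-sided exact permutation test, p = 0.80, Benjamini-Hochberg adjusted over 12 share tests 0.873). In SK-N-AS the share was 6.06%, 6.66% and 6.94% with DMSO and 6.98%, 7.03% and 7.91% with Erastin, so that every Erastin sample lay above every DMSO sample. The means were 6.55% ± 0.453 and 7.30% ± 0.523 (SD, n = 3 each; exact permutation p = 0.10, adjusted 0.24). With 3 samples against 3 the smallest p this test can give is 0.10, so none of the share comparisons could pass a threshold of 0.05. In these bulk samples, more mitochondrial RNA per cell and less other RNA cannot be told apart.

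Nearly all of these counts were mRNA. In SK-N-AS the mRNA share was 6.28% ± 0.462 with DMSO and 7.03% ± 0.527 with Erastin without overlap, whereas the rRNA share was 0.259% ± 0.0151 and 0.268% ± 0.00486 with overlap (SD, n = 3 each). The tRNA share did not overlap either, at 0.00761% to 0.00794% with DMSO and 0.00812% to 0.00851% with Erastin. For mRNA the groups nearly touched, with the highest DMSO sample at 6.694% and the lowest Erastin sample at 6.695%. By complex, the summed share of the 7 complex I mRNAs was 2.41% to 2.83% with DMSO and 2.86% to 3.28% with Erastin. MT-CYB, the complex III mRNA, lay at 0.396% to 0.480% and 0.489% to 0.565%, and the 3 complex IV mRNAs at 2.37% to 2.67% and 2.71% to 3.11%. The 2 mRNAs of complex V, the ATP synthase, overlapped at 0.608% to 0.715% and 0.609% to 0.678%. In KELLY the 2 groups overlapped for each of the 4 complexes. MT-CO1 had more counts than any other row in all 12 libraries, and 8 to 10 of the 20 rows with the most counts in a library were mitochondrial.

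**Figure D1:**
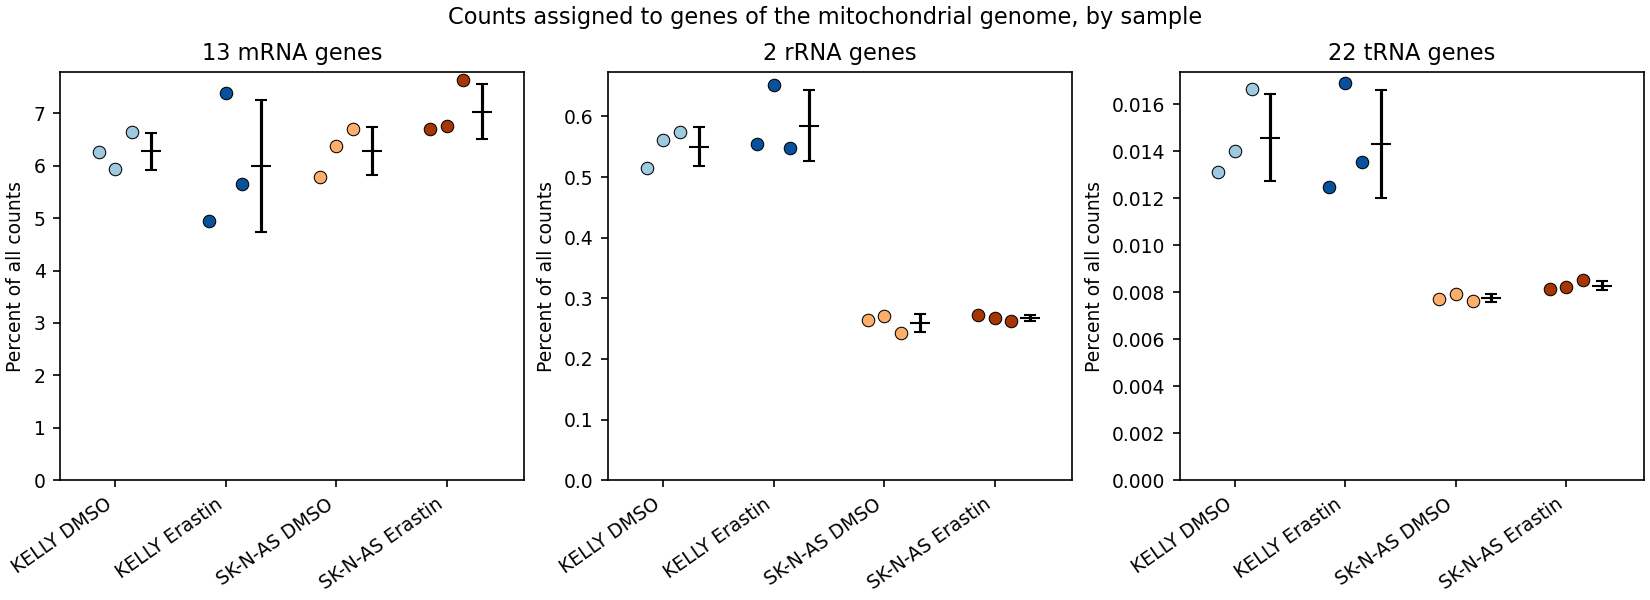
Percent of all counts assigned to the 13 mRNA, 2 rRNA and 22 tRNA genes of the mitochondrial genome (y axes, each from 0) in the 3 samples of each group (points), with the mean and SD beside them. The SK-N-AS Erastin samples lie above the DMSO samples for mRNA, with the nearest samples almost level, and for tRNA. Both KELLY groups lie above both SK-N-AS groups for rRNA and tRNA.

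Per kilobase of gene, the DMSO samples of both lines shared the same upper genes. In KELLY DMSO MT-CO1, the catalytic subunit of complex IV, stood first at 11404 ± 595 CPM per kb, followed by MT-ATP6 at 10779 ± 1557 and MT-CO2 at 9137 ± 604 (SD, n = 3 each), each overlapping the next in its samples. MT-ND4 followed at 6414 ± 573 without overlap with MT-CO2. MT-CO3, MT-ND4L and MT-ND2 lay between 6060 and 5421 CPM per kb and overlapped each other. In SK-N-AS DMSO the order began with MT-CO2 at 11249 ± 1084, MT-ATP6 at 9744 ± 789, MT-CO1 at 8953 ± 455, MT-ND4 at 7719 ± 748 and MT-ND2 at 6852 ± 440 (CPM per kb, SD, n = 3), each overlapping the next. Among the mRNAs other than MT-ATP8, MT-ND6 was the lowest in each line, at 936 ± 100 in KELLY DMSO and 1176 ± 205 in SK-N-AS DMSO. MT-ND6 encodes the complex I subunit on the reverse strand, and whether the libraries kept strand is not given in the sources used here. MT-RNR2, the large rRNA, was at 3187 ± 103 CPM per kb in KELLY DMSO, above MT-ND5 and MT-ND3, and at 1194 ± 38.0 in SK-N-AS DMSO, where it overlapped MT-ND5 and MT-ND6. MT-ATP8 was last in each line at 51.5 ± 3.42 and 48.5 ± 14.7 CPM per kb.

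In KELLY no mitochondrial gene passed the test of Erastin against DMSO. The low-count filter kept 31 of the 37 genes, of which 0 were called at an adjusted p under 0.05 (edgeR quasi-likelihood test, Benjamini-Hochberg over 16258 genes), against 0.00615% of all genes tested, which is 1 gene. At an unadjusted p under 0.05 there were 0 of 31, against 2.64% of all genes, and DESeq2 and limma-voom also called 0. No member had groups that did not overlap, against 8.43% of all genes. The median log2 fold change was -0.06 over the 31 genes and -0.08 over the 13 mRNAs, beside 0.01 over all genes tested.

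The complex IV mRNA MT-CO1 had 17266, 16870 and 18620 CPM with DMSO and 14841, 22498 and 16772 CPM with Erastin in KELLY. The Erastin samples again lay on both sides, and the log2 fold change was 0.04 ± 0.16 (SE; edgeR adjusted p = 0.924). The other mRNAs except MT-ATP8 had log2 fold changes from -0.39 for MT-ND4L to 0.06 for MT-CYB, with SE of 0.14 to 0.23. MT-RNR1 and MT-RNR2, the rRNAs of the small and large ribosomal subunit, were at 0.000459 ± 0.28 and 0.10 ± 0.12. MT-ATP8, a small subunit of the ATP synthase, was counted 254, 279 and 300 times in the DMSO and 1851, 408 and 218 times in the Erastin samples. Its log2 fold change of 1.66 ± 0.74 (edgeR adjusted p = 0.770) rested on the first Erastin library and was 0.16 without it. In that library the MT-ATP6 count was 62.8 times that of MT-ATP8, and in the other 11 libraries 478 to 924 times. That library had the GC trend of 0.86 given above, and the part of that trend in this value was not tested.

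Some tRNA genes and MT-RNR1 varied more within the KELLY DMSO group than between the groups. In the first KELLY DMSO library MT-TY had 47 counts, MT-TC 21, MT-TN 58, MT-TH 2 and MT-RNR1 7996, while the other 2 DMSO libraries had 255 and 315, 149 and 134, 254 and 249, 20 and 21, and 16688 and 17085. MT-RNR2 differed little there, at 123087 against 120887 and 145365 counts, so the ratio of MT-RNR2 to MT-RNR1 counts was 15.4 in that library and 7.24 and 8.51 in the other 2. In KELLY Erastin the ratio was 7.89, 13.2 and 9.69. The 16 tRNAs tested had log2 fold changes from -0.67 to 1.01, and the other 6 had at most 17 counts in any of the 12 libraries. MT-TE, the tRNA for glutamate, came nearest to a lower level with Erastin, at 160, 95 and 195 counts against 63, 120 and 93, with overlap (log2 fold change -0.67 ± 0.31, edgeR adjusted p = 0.770).

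In SK-N-AS no mitochondrial gene passed the adjusted threshold either. However, more members than genes in general lay apart between the groups. Of 26 genes tested 0 were called at an adjusted p under 0.05 by edgeR, DESeq2 and limma-voom, against 0.659% of all genes tested by edgeR. At an unadjusted p under 0.05 there were 11 of 26 members, 8 higher and 3 lower with Erastin, against 8.77% of all genes, with 3.9% higher and 4.87% lower. The groups did not overlap in 14 of 26 members, 11 higher and 3 lower, against 7.76% and 7.2% of all genes, and 11 of these 14 were mRNAs. The members share 1 precursor on each strand and are not independent of each other. At the threshold of the study, an unadjusted p of at most 0.05 with a fold change of at least 1.5, 1 member passed, MT-TI, the tRNA for isoleucine, against 2.67% of all genes. Its counts were 40, 50 and 37 in DMSO against 25, 24 and 27 in Erastin samples (log2 fold change -0.79 ± 0.27, edgeR adjusted p = 0.357).

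Most mRNAs of complexes I, III and IV had higher values with Erastin in SK-N-AS. MT-CO1 had 13000, 14131 and 14286 CPM with DMSO and 15308, 15911 and 17850 with Erastin, without overlap (log2 fold change 0.24 ± 0.08, edgeR adjusted p = 0.283). MT-ND6 had 521, 598 and 734 CPM with DMSO and 753, 772 and 886 with Erastin, again without overlap (0.38 ± 0.12, edgeR adjusted p = 0.287). MT-ND5, the largest complex I subunit of this genome, was at 2211, 2375 and 2616 CPM against 2839, 2785 and 3168 (0.29 ± 0.08, edgeR adjusted p = 0.232). MT-ND4, MT-ND4L, MT-ND1, MT-ND2, MT-CO2 and MT-CYB had log2 fold changes from 0.13 for MT-ND2 to 0.28 for MT-ND4L, and their groups did not overlap. Their adjusted p lay between 0.388 and 0.679.

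The consecutive genes MT-ATP6, MT-CO3 and MT-ND3 had lower or overlapping values. MT-CO3, a complex IV subunit, had 3820, 4242 and 4021 CPM with DMSO and 3265, 3241 and 3354 with Erastin, so that all Erastin samples were lower (log2 fold change -0.30 ± 0.07, edgeR adjusted p = 0.102). MT-ND3, a complex I subunit, had 1547, 1857 and 1796 CPM against 1461, 1492 and 1544, without overlap (-0.21 ± 0.08, edgeR adjusted p = 0.459). MT-ATP6, which forms the proton channel of the ATP synthase, overlapped at 6072, 6693 and 7142 CPM against 6275, 6078 and 6764 (-0.06 ± 0.08, edgeR adjusted p = 0.898). MT-RNR2 was at 0.09 ± 0.07 and MT-RNR1 at -0.08 ± 0.15. Of the 11 tRNAs tested, MT-TP was higher without overlap, at 1126, 1230 and 1278 counts against 1334, 1560 and 1390 (0.19 ± 0.10, edgeR adjusted p = 0.641), MT-TI was lower as given above, and the other 9, MT-TL1, MT-TY, MT-TN, MT-TC, MT-TG, MT-TE, MT-TV, MT-TR and MT-TT, overlapped.

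**Figure D2:**
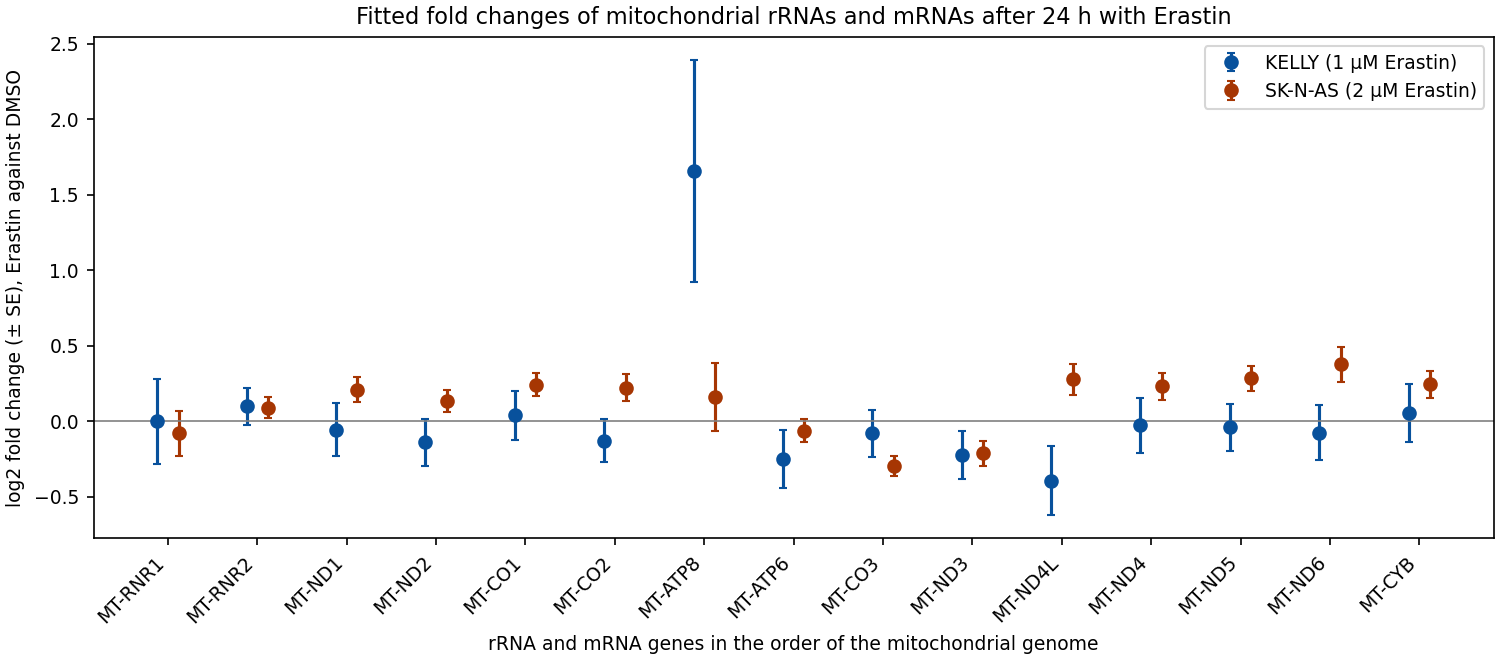
Log2 fold change of Erastin against DMSO (y axis, points with SE) for the 2 rRNA and 13 mRNA genes in genome order (x axis), fitted separately in KELLY and SK-N-AS. In SK-N-AS the values lie above 0 except for MT-RNR1, MT-ATP6, MT-CO3 and MT-ND3, and the KELLY value of MT-ATP8 rests on 1 library.

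Whether these SK-N-AS values were called depended on the correction for GC content, the filter on low counts, a block for the replicate number and single DMSO libraries. With the GC correction 8 members were called, MT-ND6, MT-ND5, MT-ND4L, MT-CYB, MT-CO1 and MT-ND4 higher and MT-CO3 and MT-ND3 lower, with MT-CO3 at -0.31 (edgeR adjusted p = 0.000943) and MT-ND6 at 0.37 (adjusted p = 0.00659). Their fold changes moved little, but the same correction raised the count over all genes from 106 to 965. With no filter 3 members were called, beside 265 of 30711 genes tested. With the block 8 members were called, 7 higher and 1 lower, beside 308 of 16095 genes. Without the third DMSO sample 9 members were called, beside 855 of 16433 genes. Without the first only MT-CO3 and MT-ND3 were called, at edgeR adjusted p of 0.0113 and 0.0403, beside 155 of 16395 genes. In the same samples MALAT1, a transcript retained in the nucleus, was at 125 to 169 CPM with DMSO and 189 to 220 with Erastin (0.39 ± 0.11, edgeR adjusted p = 0.230), and the summed level of MALAT1, NEAT1 and KCNQ1OT1 was 203 to 270 CPM and 271 to 331 CPM, none of the 3 being at 0. The part of this in the mitochondrial values was not tested.

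Measured within the mitochondrial mRNAs alone, the scale of the library drops out. This was done as each gene's percent of the counts of all 13 mRNAs in a sample, and these percents were not tested, since the genes described were picked after their values were seen. In SK-N-AS, MT-CO3 took 6.60%, 6.65% and 6.01% with DMSO and 4.88%, 4.80% and 4.39% with Erastin, a ratio of the means of 0.730. MT-ND3 took 2.67%, 2.91% and 2.68% against 2.18%, 2.21% and 2.02%, a ratio of 0.776. MT-ATP6 took 10.5%, 10.5% and 10.7% against 9.37%, 9.00% and 8.86%, a ratio of 0.860. For each of the 3 genes the Erastin samples lay below the DMSO samples without overlap. Of the other mRNAs 7 were higher without overlap, with ratios from 1.05 for MT-CO2 to 1.17 for MT-ND6, and MT-ND1, MT-ND2 and MT-ATP8 overlapped. The percents of a sample share a fixed total, so lower percents of some genes raise those of others. The 7 higher percents are therefore not separate from the 3 lower ones. In the fit with the mitochondrial total as the library size, an alternative run over all genes, the fitted log2 fold change of MT-CO3 was -0.45 (edgeR adjusted p = 0.0488) and it was the 1 member called. That fit called 81 of 16095 genes.

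In KELLY the same 3 genes differed less and with more spread. MT-ATP6 took 13.2%, 10.4% and 11.4% of mitochondrial mRNA counts with DMSO and 9.74%, 10.5% and 10.5% with Erastin. MT-CO3 took 6.09%, 8.88% and 7.79% against 8.30%, 6.78% and 7.68%, and MT-ND3 1.29%, 1.38% and 1.16% against 1.12%, 1.09% and 1.23%. Each of the 3 overlapped between the groups. In the first DMSO library MT-ATP6 was high and MT-CO3 low. The sum of the 3 genes was 20.6%, 20.7% and 20.3% with DMSO and 19.2%, 18.4% and 19.4% with Erastin in KELLY, and 19.8%, 20.1% and 19.4% against 16.4%, 16.0% and 15.3% in SK-N-AS. The Erastin samples were lower in each line without overlap, and the sum was formed after its members' values were seen. MT-CO1 was the 1 mRNA with a higher percent in KELLY without overlap, at 27.6%, 28.4% and 28.0% against 30.0%, 30.5% and 29.6%, and MT-ND2 the 1 with a lower percent, at 8.87%, 8.94% and 9.16% against 8.78%, 8.42% and 8.49%. The other 11 overlapped. In CPM no mitochondrial gene of KELLY had groups without overlap, against 8.43% of all genes tested. The percents share a fixed total, so the higher and the lower ones are not separate results.

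**Figure D3:**
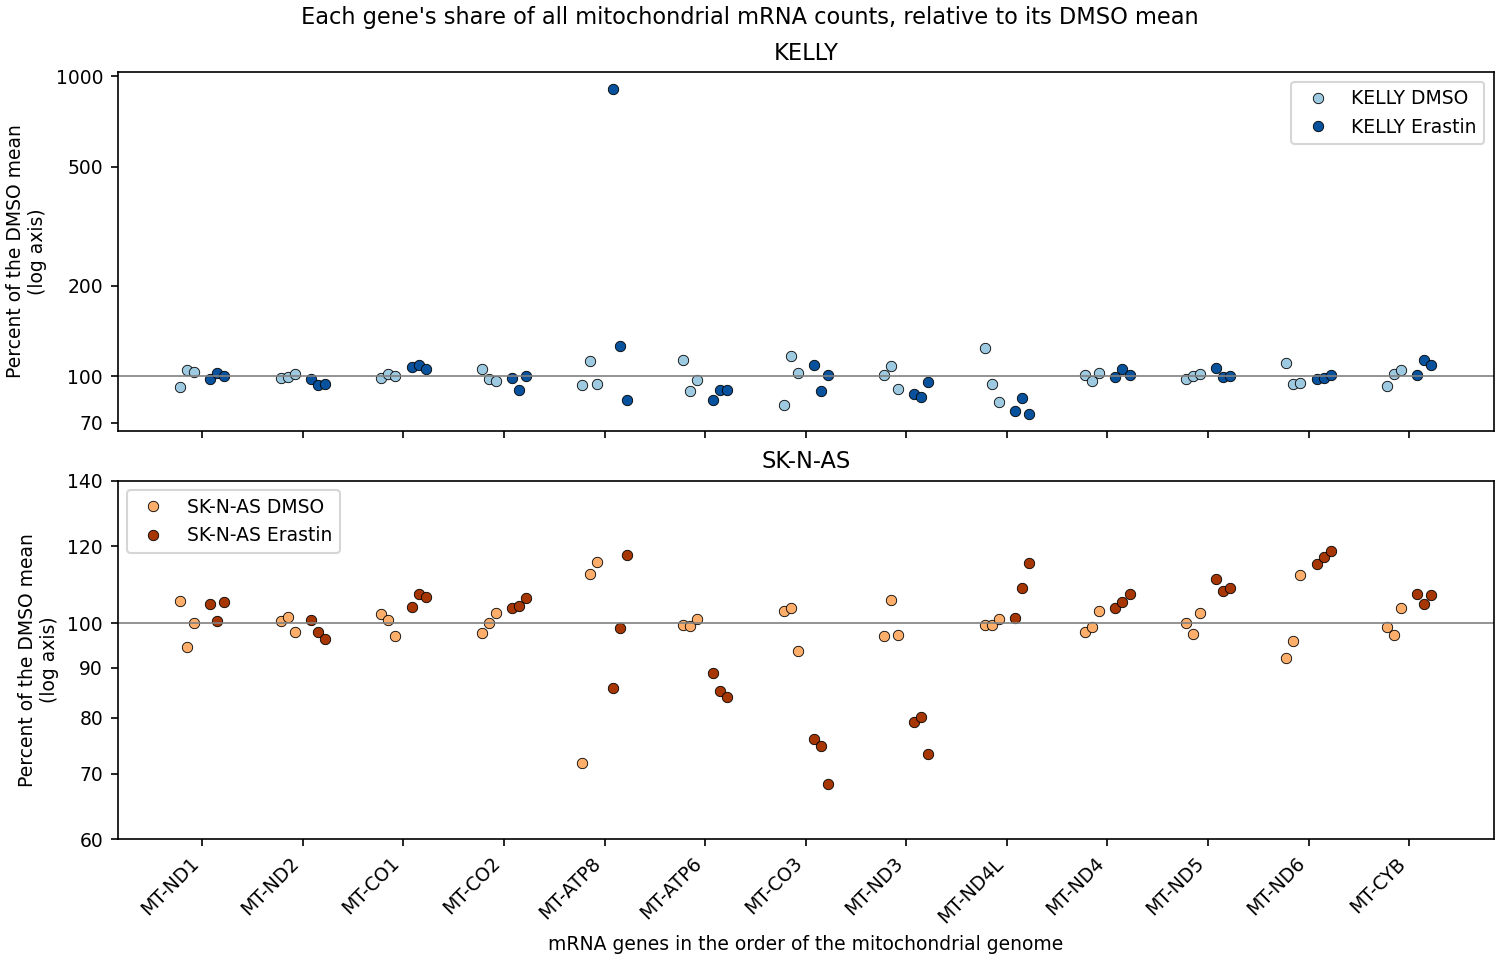
Each mRNA's percent of the counts of all 13 mitochondrial mRNAs, relative to its mean over the DMSO samples of the line (y axes, log scale, 100 is the DMSO mean), for the 3 DMSO and 3 Erastin samples (points) in genome order, with KELLY above and SK-N-AS below. In SK-N-AS the Erastin samples of MT-ATP6, MT-CO3 and MT-ND3 lie between 68% and 89% of the DMSO mean, and the single high KELLY point is MT-ATP8 in the first Erastin library.

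The difference between the responses of the lines was tested over all 12 samples as KELLY effect minus SK-N-AS effect. Of 31 members tested 0 were called at an adjusted p under 0.05, against 0.00548% of all genes, and 2 had an unadjusted p under 0.05, against 4.25%. DESeq2 and limma-voom called 0 members. The 2 members with a p under 0.05 were MT-ND4L, at -0.66 ± 0.27 (edgeR adjusted p = 0.811), and MT-TE, at -0.97 ± 0.44 (adjusted 0.811). In KELLY MT-ND4L had 2035, 1457 and 1423 CPM with DMSO and 994, 1641 and 1106 with Erastin. With 1 replicate left out the difference ranged from -0.92 to -0.48 for MT-ND4L and from -1.22 to -0.73 for MT-TE. For MT-CO3 the difference was 0.22 ± 0.17 (edgeR adjusted p = 0.811) and for MT-ND3 -0.00374 ± 0.18, whereas for MT-ND6 it was -0.44 ± 0.23. The SK-N-AS values are therefore not shown to differ from those of KELLY. The value for MT-ATP8, 1.499 ± 0.86, was -0.045 without the first replicate of both KELLY groups.

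The lines differed before treatment. Between the DMSO samples 17 of 30 members tested were called, 13 higher and 4 lower in KELLY (edgeR quasi-likelihood test, adjusted p under 0.05), against 61.3% of all genes tested, of which 30.9% were higher and 30.3% lower. Over both directions the members were thus called about as often as genes in general. By kind, 2 of the 13 mRNAs were higher and 4 lower. Of the 2 rRNAs 1 was higher and 0 lower, and of the 15 tRNAs 10 were higher and 0 lower. With the GC correction 20 members were called, 15 higher and 5 lower, with MT-ATP6 at 0.21, MT-CO3 at 0.32 and MT-ND6 at -0.27 added (edgeR, adjusted p under 0.05). The same correction raised the count over all 17089 genes from 10473 to 12652, with 6583 higher and 6069 lower. Without the correction the median log2 difference was 0.28 over the 30 members, -0.08 over the 13 mRNAs and 1.18 over the 15 tRNAs tested, beside 0.02 over all genes. The share of counts in mRNAs was 6.28% ± 0.354 in KELLY DMSO and 6.28% ± 0.462 in SK-N-AS DMSO (SD, n = 3 each), with an exact permutation p of 1.0. The share in rRNAs was 0.550% ± 0.0318 against 0.259% ± 0.0151 and that in tRNAs 0.0146% ± 0.00183 against 0.00775% ± 0.000170, each without overlap (SD, n = 3 each; exact permutation p = 0.10, the smallest possible, adjusted 0.24). Whether the libraries were depleted of rRNA or selected for poly(A) is not given in the sources used here.

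Of the rRNAs and mRNAs, MT-RNR2 had the largest difference, and the genes that follow it in the genome were higher in KELLY as well. MT-RNR2 had 4830, 4931 and 5145 CPM in KELLY DMSO and 1799, 1917 and 1868 in SK-N-AS DMSO. The log2 difference was 1.40 ± 0.10 (edgeR adjusted p = 4.52e-06). The next gene, MT-TL1, one of the tRNAs for leucine, had 864, 790 and 1182 counts against 147, 132 and 171 (2.66 ± 0.18, edgeR adjusted p = 3.23e-06). MT-ND1, a complex I subunit, had 3444, 3706 and 4092 CPM against 2245, 2224 and 2471 (0.68 ± 0.11, edgeR adjusted p = 0.000756). In these 3 genes the lines did not overlap. MT-RNR1, before them, was at 314, 681 and 605 CPM in KELLY DMSO and 839, 800 and 556 in SK-N-AS DMSO with overlap (-0.47 ± 0.28, edgeR adjusted p = 0.170), so that the ratio of MT-RNR2 to MT-RNR1 counts was 7.24 to 15.4 in KELLY DMSO and 2.14 to 3.36 in SK-N-AS DMSO.

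Among the other mRNAs, MT-ND3 differed most. It had 808, 821 and 773 CPM in KELLY DMSO and 1547, 1857 and 1796 in SK-N-AS DMSO (-1.13 ± 0.12, edgeR adjusted p = 4.98e-05). MT-CYB, the cytochrome b of complex III, MT-ND2 and MT-CO2 were also lower in KELLY, at -0.38 ± 0.12, -0.36 ± 0.11 and -0.32 ± 0.12, and MT-CO1 was higher at 0.33 ± 0.10. The adjusted p of these 4 lay between 0.0163 and 0.0387. MT-CO1 lost its call in 2 of the 6 fits that left out 1 sample, MT-CO2 in 4, and MT-CYB and MT-ND2 in 3 each, whereas the calls of MT-RNR2, MT-TL1, MT-ND1 and MT-ND3 held in every alternative that tested them. The remaining mRNAs, MT-ND4, MT-ND4L, MT-ND5, MT-ND6, MT-ATP6, MT-ATP8 and MT-CO3, had log2 differences from -0.35 for MT-ND6 to 0.22 for MT-CO3 and were not called.

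The other genes higher in KELLY were tRNAs, 10 of 15 tested with MT-TL1 included. Of all genes tested 61.3% were called, 30.9% higher and 30.3% lower. Over both directions the tRNAs were called about as often as genes in general, but 10 were higher and 0 lower. The members share 1 precursor on each strand and are not independent of each other. MT-TP had 1858, 1440 and 1916 counts in KELLY DMSO and 1126, 1230 and 1278 in SK-N-AS DMSO (0.53 ± 0.15, edgeR adjusted p = 0.0125). MT-TE had 160, 95 and 195 against 28, 37 and 47 (2.00 ± 0.31, edgeR adjusted p = 0.000478), and MT-TI had 93, 95 and 157 against 40, 50 and 37 (1.43 ± 0.27, edgeR adjusted p = 0.00152). In each of these the lines did not overlap. MT-TV, MT-TR, MT-TD, MT-TM and MT-TQ were higher by 1.18 to 2.86 on the log2 scale without overlap, with at most 82 counts in any DMSO library. MT-TG was called at 1.11 ± 0.37 although its samples overlapped, at 45, 87 and 137 counts against 51, 37 and 36. Of the 6 fits that left out 1 sample, MT-TP lost its call in 2, MT-TG in 3 and MT-TQ in 3. MT-TY, MT-TN, MT-TC, MT-TT and MT-TH were not called, and the first KELLY DMSO library was low for 4 of these 5 as given above. MT-TS1, tested in KELLY alone and in the fit of all samples, had 0 to 26 counts. A read pair over a tRNA can also reach the neighbouring gene, and whether these counts come from free tRNAs or from precursors was not tested.

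**Figure D4:**
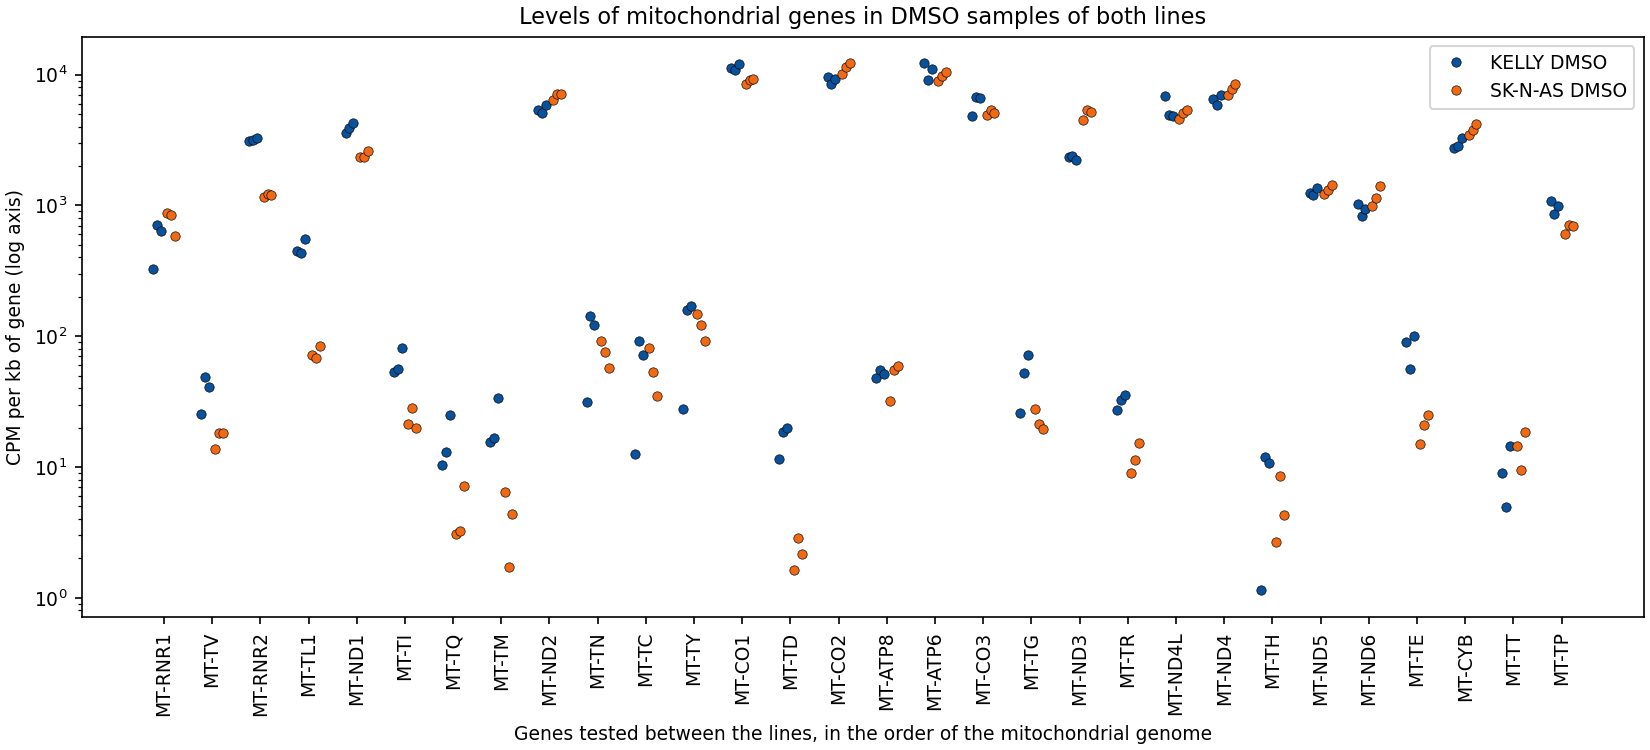
CPM per kilobase of gene (y axis, log scale) in the 3 DMSO samples of KELLY and of SK-N-AS (points) for the 30 mitochondrial genes tested between the lines, in genome order (x axis). MT-RNR2, MT-TL1 and MT-ND1 lie higher in KELLY and MT-ND3 lower, without overlap, while most mRNAs lie close together, and MT-TN, MT-TC, MT-TY and MT-TH each have 1 low KELLY sample.

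The nuclear genes that transcribe and stabilize mitochondrial RNA were compared in the same fits. With Erastin, 0 of 11 mitochondrial transcription genes and 0 of 35 genes of RNA processing and stability were called in KELLY, and 0 of 11 and 0 of 35 in SK-N-AS (edgeR, adjusted p under 0.05). In the KELLY fit 0 and 0 of them had an unadjusted p under 0.05, against 2.64% of all genes, and in SK-N-AS 1 and 2, against 8.77%. TFAM, which packages the mitochondrial genome and starts its transcription, was at 112 to 184 CPM in KELLY DMSO and 77.7 to 137 with Erastin, and at 89.3 to 134 and 93.4 to 106 in SK-N-AS. POLRMT, TFB2M, the elongation factor TEFM and LRPPRC also overlapped between treatments in each line, with KELLY log2 fold changes of -0.34 to 0.36 and SK-N-AS ones of -0.04 to 0.05. SLIRP, the partner of LRPPRC, was at 38.6 to 45.4 CPM with DMSO and 33.7 to 37.2 with Erastin in SK-N-AS, without overlap (-0.27 ± 0.10, edgeR adjusted p = 0.428). In KELLY it was at -0.28 ± 0.17. PPARGC1A, a coactivator of mitochondrial biogenesis, had log2 fold changes of -0.20 ± 0.30 and -0.23 ± 0.34 in KELLY and SK-N-AS.

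The nuclear-encoded subunits that assemble with the mitochondrial ones showed no calls with Erastin either. Of the complex I subunits 0 of 36 tested in KELLY and 0 of 37 in SK-N-AS were called, with 0 at an unadjusted p under 0.05 in each line, and median log2 fold changes of 0.03 and 0.00153. Of 35 subunits of complexes III, IV and V 0 were called in each line, again with 0 at an unadjusted p under 0.05, and the medians were 0.06 and -0.06. Among 20 genes of mitochondrial genome replication and upkeep and 11 tested regulators of mitochondrial gene supply, 0 were called in each line, with 0 and 0 at an unadjusted p under 0.05 in KELLY and 1 and 0 in SK-N-AS. In the test of the difference between the lines 0 genes of these 6 lists were called, and 1 transcription gene and 1 processing gene had an unadjusted p under 0.05.

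Between the DMSO samples of the lines 61.3% of all genes tested were called, 30.9% higher and 30.3% lower in KELLY, and the counts of the lists are to be read against these shares. Of the 11 transcription genes 3 were higher and 1 lower in KELLY. TEFM was at 10.8 to 16.8 CPM in KELLY and 3.78 to 6.21 in SK-N-AS (1.53 ± 0.26, edgeR adjusted p = 0.000873), and POLRMT at 94.9 to 157 against 58.3 to 86.3 (0.83 ± 0.22, adjusted 0.00909). MTERF2 was higher at 0.54 and TOP1MT, a mitochondrial topoisomerase, lower at -0.90, while TFAM at 0.37 ± 0.22 and TFB2M at -0.15 ± 0.18 were not called. Of 35 processing and stability genes 12 were higher and 6 lower. They included TRMU, which modifies mitochondrial tRNAs, at 1.51, the helicases DHX30 at 0.94 and SUPV3L1 at 0.76, ELAC2, which cuts the 3′ ends of tRNAs, at 0.76, and PTCD3 at -0.90. SLIRP was lower at -0.42 ± 0.16 (edgeR adjusted p = 0.0462) and LRPPRC at 0.33 ± 0.21 was not called.

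PPARGC1A was at 9.71 to 16.8 CPM in KELLY DMSO and 0.808 to 1.37 in SK-N-AS DMSO (3.59 ± 0.30, edgeR adjusted p = 1.11e-05). Of 11 regulators of mitochondrial gene supply 5 were higher and 1 lower. NRIP1, a corepressor, was at 58.6 to 90.4 CPM against 0.184 to 0.584, PPARGC1B was higher at 1.09, SIRT1 at 0.74 and PPRC1 at 0.54, and YY1 was lower at -1.05. Of 20 replication and upkeep genes 5 were higher and 8 lower, among them DNA2 at 1.57, EXOG at 1.41 and LIG3 at 1.32, and TK2, the mitochondrial thymidine kinase, at -1.36 and TYMP at -2.48. Of 37 complex I subunits 9 were higher and 4 lower, again beside 61.3% of all genes called, with NDUFA6 at 1.99, NDUFA9 at 1.27, NDUFC1 at -1.05, NDUFB9 at -0.80 and NDUFA13 at -1.83. Of 35 subunits of the other complexes 13 were higher and 6 lower, with UQCRC1 at 1.54, ATP5PB at 1.37, UQCR10 at 1.14, ATP5PD at -0.90 and UQCRQ at -0.96. The median log2 differences of the complex I and the other subunits were 0.20 and 0.28, beside 0.02 over all genes.

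Reads from mitochondrial genes can also be assigned to their copies in the nuclear genome. The tables hold 407 rows named as such copies, and together they took 0.0517% to 0.120% of the counts of a library. The 5 with the most counts were MTND2P28, MTATP6P1, MTCO1P12, MTCO3P12 and MTND4P12. MTND2P28 had 6371 to 19371 counts, which is 6.08% to 12.2% of the MT-ND2 count of the same library, and MTATP6P1 5323 to 12288 counts, 4.19% to 6.04% of MT-ATP6. MTCO1P12 had 0.137% to 0.212% of MT-CO1, and MTCO3P12 and MTND4P12 at most 92 and 24 counts. With Erastin, 0 of the 5 were called in KELLY and 0 of the 4 tested in SK-N-AS, where MTCO3P12 did not pass the filter (edgeR, adjusted p under 0.05). MTATP6P1 and MTCO3P12 had an unadjusted p under 0.05 in KELLY, at -0.54 ± 0.20 and -1.83 ± 0.68, each with an adjusted p of 0.770. How reads were split between the mitochondrial genes and these copies is not known. Counts of genes with such copies, MT-ND2 and MT-ATP6 among them, are therefore uncertain by an amount not known here.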

How the data were processed

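RNA of 12 samples was sequenced as paired-end reads, 3 per treatment and cell line. Per the labels and the methods, the authors used Trimmomatic for trimming, GRCh38 as the genome and HTSeq with GENCODE gene models for counting, and deposited raw counts of all biotypes without normalization. The aligner, strand setting, counting mode and library type are not given in the sources used here. The authors kept protein-coding genes for their own tests, but all biotypes were kept here because rRNAs and tRNAs are members. Total counts were 24169796 to 29835670 per sample. At this depth the SE of well-counted genes followed the spread between samples, with a biological coefficient of variation of 0.246 for KELLY and 0.105 for SK-N-AS.

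Counts were fitted in R 4.3.3 with edgeR 4.0.16 (filterByExpr defaults, TMM, quasi-likelihood test, Benjamini-Hochberg over all genes tested). Treatment was tested within each line, the interaction over all 12 samples, and the lines between DMSO samples. SE is the log2 fold change divided by the square root of F. Shares of counts were tested with two-sided exact permutation tests in scipy 1.17.1. CPM refers to all counts of a sample. Coordinates, lengths and GC content came from GENCODE release 44 on GRCh38, with 36512 of 57167 names matched by symbol and 880 by a RefSeq synonym. On simulated data with 100 genes changed by a log2 of 1, 25 were recovered in KELLY, 91 in SK-N-AS, 25 for the interaction and 45 between the lines.

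The result of 1 blood and immune cell marker is not reported here. The members, gene lists and tests were chosen with earlier results of these data known. All mRNAs and rRNAs were named, tRNAs where they passed the filter in at least 1 fit, 7 regulators always, up to 5 further genes per list and comparison with the smallest p among those called, and the 5 nuclear copies with the most counts. Alternatives were RLE factors, library size alone, scaling on nuclear genes, scaling on the mitochondrial total, DESeq2 1.42.0, limma-voom (limma 3.58.1), no filter, a minimum of 10 counts in each sample, a table of protein-coding genes alone, a block for the replicate number, a GC correction (loess, span 0.5), the block with the GC correction, a joint fit of the 12 samples, and leaving out single replicates. Leaving out the first replicate of both KELLY groups was chosen after seeing the data.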

Additional observations from a re-analysis of the deposited data

How the results depend on the processing

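In KELLY and for the interaction, 0 members were called in the main fits and in every alternative run. In SK-N-AS the count of called members moved from 0, beside 106 of 16095 genes, to 1 when scaled on the mitochondrial total, beside 81. With no filter on low counts it was 3, beside 265 of 30711 genes. It was 8 with the GC correction, beside 965 of 16095 genes, and 8 with the replicate block, beside 308. With the block and the GC correction together it was 11, beside 1637. With each replicate left out it lay between 0 and 9, beside 53 to 855 genes. It was 2 without the first and 9 without the third DMSO sample, beside 155 of 16395 and 855 of 16433 genes. Between the DMSO samples 17 members were called, beside 10473 of 17089 genes. With protein-coding genes only, where tRNAs and rRNAs are not tested, the count was 6, beside 8615 of 13523. It was 20 with the GC correction, beside 12652 of 17089, and 12 to 21 with each replicate left out, beside 8956 to 11769. The cause of the other changes was not tested. Of the gene-level alternatives that kept their direction, 42 in SK-N-AS passed the threshold where the main fit did not, and between the lines 27 lost a call and 15 gained one.

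Whether the replicate numbers paired the samples could not be decided here, because the deviations were not separated from the GC trends given above. Number 1 of KELLY had GC trends of -0.83 with DMSO and 0.86 with Erastin. The correlations of same-numbered deviations were -0.81, -0.85 and -0.17 in KELLY and -0.15, 0.22 and 0.45 in SK-N-AS. Between the DMSO groups they were -0.69, 0.25 and -0.30. In none of the 3 did every sample correlate best with its own number. In SK-N-AS, DMSO samples 2 and 3 correlated best with the Erastin sample of their own number. DMSO sample 1 correlated best with Erastin sample 2, at 0.49. The replicate block left 0 members called in KELLY and 14 between the lines, and moved the counts over all genes to 0 in KELLY, 308 in SK-N-AS and 9041 between the lines. Of the shares, the differences of 0.753 percentage points in SK-N-AS, -0.249 in KELLY and 0.291 between the lines had block p of 0.25, 1.0 and 0.5 by exact sign-flip permutation, where 0.25 is the smallest possible.

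The sign turned, counting turns where at least 1 of the values exceeded its own SE, for few genes, none of them called. In KELLY these were MT-TP (0.055 with the GC correction and 0.055 with the block as well), and MT-RNR1 (-0.27 to 0.22), MT-CO1 (-0.16 to 0.16) and MT-CYB (-0.17 to 0.21) over the fits leaving out 1 replicate. Without the first replicate of both KELLY groups MT-ATP6 was at 0.000317, MT-RNR1 at -0.40, MT-TY at -0.00525 and MT-TH at -0.55, and in the interaction MT-RNR1 was at -0.33 and MT-ATP8 at -0.045. Scaled on the mitochondrial total, MT-ND2 and MT-RNR2 in SK-N-AS were at -0.019 and -0.066, and in the interaction MT-CO1 was at 0.000390 and MT-ND3 at 0.19. The interaction value of MT-ND3 was 0.16 with the GC correction and 0.17 with the block as well. MT-TY between the lines ranged from -0.38 to 0.43 over single samples left out.

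Counts over all genes also moved. In KELLY 1 call became 31 with DESeq2, 19 with no filter, 32 with the GC correction, 5 with the block as well, 17 with all 12 samples and 23 without the first replicates. In SK-N-AS 106 became 221 with DESeq2, 265 with no filter, 965 with the GC correction, 1637 with the block as well, 46 with all 12 samples and 53 to 855 with each replicate left out. For the interaction 1 became 12 with DESeq2, 8 with no filter, 15 with the GC correction, 4 with the block as well and 0 on the mitochondrial total. Between the lines 10473 became 12652 with the GC correction, 8615 with protein-coding genes only and 8956 to 11769 with each replicate left out. Depth limits the tRNAs most, 3 of which had under 10 counts in every library.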
